A study of Homo sapiens with 6 samples.

Results

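DNHD1, a dynein heavy chain-like gene, was followed in HEK-293T cells with the subunits of the cytoplasmic dynein motors. The 8 genes were taken by symbol from a table of 16655 genes, and all 8 were present and passed the filter on low counts. They are DNHD1 itself, the heavy chains DYNC1H1 and DYNC2H1, the intermediate chains DYNC1I1 and DYNC1I2, and the light intermediate chains DYNC1LI1, DYNC1LI2 and DYNC2LI1. DNHD1 was chosen because it was lower in the comparison described here, so its difference is given as a description with no test. The other 7 were chosen as its relatives by name.

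HEK-293T derives from human embryonic kidney and makes the large T antigen of SV40. The cells were transfected with a plasmid for GFP alone (3 libraries, the control) or for GFP fused to RfA1, a squid reflectin whose codons had been adapted to human cells (3 libraries), and were harvested 24 h later. Both groups therefore carried GFP and had passed through the same lipofection. The labels name no sort for GFP, and the share of transfected cells was not measured here. The labels number the libraries 1 to 3 in each group but do not say whether they are separate cultures, so that p-values measure the spread between these libraries, which may be technical.

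Dyneins are motors that walk towards the minus ends of microtubules. The heavy chain holds the ring of ATPase modules and the stalk that grips the microtubule, while intermediate and light intermediate chains hold the motor together and link it to cargo. Dynein-1, built on DYNC1H1, carries organelles, vesicles and mitotic spindle components to the centrosome. Dynein-2, built on DYNC2H1, carries cargo back from the tip of the cilium. Axonemal dyneins, built on the DNAH heavy chains, bend cilia and sperm flagella. DNHD1 resembles the heavy chains in sequence, is mostly known for its part in sperm flagella, and is not a recognised subunit of a cytoplasmic motor. The study was concerned with how RfA1 relates to the cytoskeleton, and the question here is whether transcripts of DNHD1 and of the minus-end motors differ between RfA1 and GFP cells.

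The sequences around the starts of the 3 heavy chain genes are shown to place them side by side. They run from 250 bases before to 50 bases after the RefSeq start, 5′ to 3′ on the plus strand of GRCh38.p14, and the capitals mark CpG, a C followed by a G. The DNHD1 window is chr11:6497030-6497329, the DYNC1H1 window chr14:101964323-101964622 and the DYNC2H1 window chr11:103109176-103109475.
DNHD1: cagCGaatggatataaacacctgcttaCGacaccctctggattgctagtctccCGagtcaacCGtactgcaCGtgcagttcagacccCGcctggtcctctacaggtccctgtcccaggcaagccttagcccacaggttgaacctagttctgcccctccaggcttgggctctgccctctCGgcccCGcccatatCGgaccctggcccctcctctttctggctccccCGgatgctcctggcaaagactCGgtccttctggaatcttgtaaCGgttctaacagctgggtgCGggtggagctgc
DYNC1H1: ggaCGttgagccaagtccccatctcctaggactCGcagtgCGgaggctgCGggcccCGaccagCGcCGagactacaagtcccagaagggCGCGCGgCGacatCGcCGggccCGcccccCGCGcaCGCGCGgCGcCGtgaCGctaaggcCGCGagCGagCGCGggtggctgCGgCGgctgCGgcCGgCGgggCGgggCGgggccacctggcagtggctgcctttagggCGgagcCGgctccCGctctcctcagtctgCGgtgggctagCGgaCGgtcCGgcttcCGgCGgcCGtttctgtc
DYNC2H1: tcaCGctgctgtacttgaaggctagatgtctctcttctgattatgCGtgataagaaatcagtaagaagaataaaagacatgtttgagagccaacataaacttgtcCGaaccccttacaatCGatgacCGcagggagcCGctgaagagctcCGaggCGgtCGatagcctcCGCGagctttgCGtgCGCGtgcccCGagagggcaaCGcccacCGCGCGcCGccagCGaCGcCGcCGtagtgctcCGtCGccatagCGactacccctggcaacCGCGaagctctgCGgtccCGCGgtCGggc
The DNHD1 window holds 13 CpG, against 44 in the DYNC1H1 window and 33 in the DYNC2H1 window. Of 35116 RefSeq windows of this kind, 49.7% hold as few as DNHD1 or fewer, and the median is 14. The letters of the GC box, GGGCGG on either strand, occur 1 time in the DNHD1 window, 4 times in that of DYNC1H1 (overlapping matches counted) and 0 times in that of DYNC2H1, and 45% of all windows hold them. These are letters in a window and not measured binding sites.

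The libraries held 10272306 to 11566284 estimated counts. RfA1 replicate 2 stood apart from the other RfA1 libraries. On the first principal component, which held 44.6% of the variance, it scored 10.1, near GFP replicates 2 and 3 (18.2 and 12.3), while RfA1 replicates 1 and 3 scored -16.5 and -22. GFP replicate 1 scored -2.18, away from the other GFP libraries. The loadings of this component followed the GC content of transcripts across genes (Spearman's rho of 0.749 in size), and genes are not independent replicates. The 6 genes listed for HEK-293 cells (PAX2, LHX1, EYA1, NEFM, NEFL and VIM) were all expressed, and the leukocyte gene PTPRC and the endothelial genes CDH5 and PECAM1 had 0 or 1 count in each library. Of the other 3 genes listed for other cell types, COL1A1 of fibroblasts had 330 to 459 counts and MYOD1 of muscle 31 to 57, both with overlapping groups, and ALB of liver had 10, 5 and 9 counts with GFP against 2, 2 and 0 with RfA1, with no overlap. Their part in the results was not tested. At an adjusted p under 0.05 from the quasi-likelihood test of edgeR, 10 of 13002 genes passed, which is 0.0769% of them. Of these, 8 were higher with RfA1 (0.0615%) and 2 lower (0.0154%), while upper-quartile normalization gave 4 higher and 2 lower and DESeq2 gave 17 higher and 16 lower.

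DNHD1 (Gene ID 144132) was lower in all 3 RfA1 libraries than in any GFP library. It had 331, 299 and 338 counts in GFP replicates 1, 2 and 3, and 185, 175 and 181 counts in RfA1 replicates 1, 2 and 3. Scaled to a normalized library size of 1000000, these were 29.8, 26.4 and 29.8 CPM against 16.8, 16.7 and 17.2 CPM. The RfA1 libraries lay close together, and the gap between the groups was wider than the range within either. The mean was 28.7 ± 1.98 CPM (SD, n = 3) in GFP cells and 16.9 ± 0.292 CPM (SD, n = 3) in RfA1 cells, 59.0% of the GFP level. The log2 fold change was -0.76 with a standard error of 0.10. RfA1 replicate 2, which stood apart elsewhere, had a DNHD1 level like that of the other RfA1 libraries, and without it the log2 fold change was -0.75. In bulk RNA, fewer cells that express a gene and less of its RNA per cell cannot be told apart. As a background, the CPM of the groups did not overlap, with RfA1 lower, for 8.01% of the tested genes, and nothing is read from this for DNHD1 because it was chosen for this difference.

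Per length, DNHD1 was a low transcript. In TPM, which divides by transcript length, it had 3.07, 2.84 and 3.35 with GFP against 2.04, 1.97 and 1.74 with RfA1, again with no overlap (6.15% of all tested genes were lower in this way). The RfA1 mean was 62.1% of the GFP mean on this scale. GENCODE places the gene on the plus strand of chromosome 11 (GRCh38, chr11:6497260-6593758), a span of 96499 bases with 20 annotated transcripts. Its longest protein-coding transcript has 14862 bases and a GC content of 56.2%, against a median of 49.15% over the tested genes. After an offset for GC content in each library, the log2 fold change was -0.68.

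**Figure D1:**
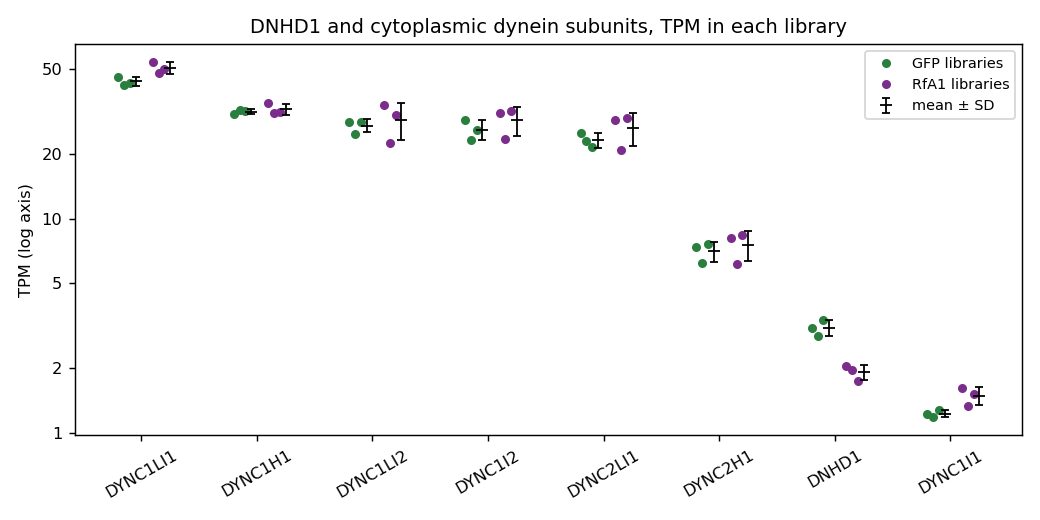
TPM of the 8 genes in each library on a log axis, ordered by their mean in GFP cells; green points are the 3 GFP libraries, purple points the 3 RfA1 libraries, and black marks the mean ± SD. DNHD1 is separated between the groups, from 2.84 to 3.35 TPM in GFP and from 1.74 to 2.04 TPM in RfA1 libraries.

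DYNC1H1 (Gene ID 1778), the heavy chain of dynein-1, overlapped between the groups. It had 433, 477 and 461 CPM with GFP against 468, 459 and 421 CPM with RfA1. The lowest value belonged to RfA1 replicate 3 and the next to GFP replicate 1. Its log2 fold change was -0.02 (standard error 0.078, 95% interval -0.19 to 0.15, adjusted p = 0.903 from edgeR, with Benjamini-Hochberg adjustment over all tested genes). The sign of this small value turned with the GC offset (0.0016) and on TPM (0.035 on the log2(TPM + 1) scale), so that no direction is given. On that TPM scale the median over all tested genes was 0.045, against -0.0024 in the main fit.

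DYNC2H1 (Gene ID 79659), the heavy chain of dynein-2, overlapped too. It had 67.1, 58.8 and 70.3 CPM with GFP against 70.0, 58.0 and 72.3 CPM with RfA1. Replicate 2 was the lowest library in each group. Its log2 fold change was 0.03 (standard error 0.11, 95% interval -0.20 to 0.26, adjusted p = 0.908 from edgeR's test), and it turned to -0.08 with the GC offset. Its transcript has a GC content of 38.3%, the second lowest of the 8 genes.

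Against the motor heavy chains, DNHD1 had a lower share in RfA1 cells. Its TPM was 9.98%, 8.83% and 10.5% of that of DYNC1H1 with GFP against 5.86%, 6.33% and 5.52% with RfA1. Relative to DYNC2H1 it was 41.8%, 45.8% and 43.8% with GFP against 25.2%, 32.0% and 20.8% with RfA1. Neither ratio overlapped between the groups, and the spread was wider for DYNC2H1 in RfA1 cells, where replicate 2 was the highest. The mean share of DYNC1H1 went from 9.76% ± 0.837 to 5.90% ± 0.405 (SD, n = 3 each), and that of DYNC2H1 from 43.8% ± 1.99 to 26.0% ± 5.65 (SD, n = 3 each). These TPM shares carry the length by which DNHD1 was divided, which differed between libraries (given below). In CPM, which is not divided by length, the share of DYNC2H1 was 43.9% ± 1.28 with GFP and 25.5% ± 2.76 with RfA1 (SD, n = 3 each). The ratio holds the values for which DNHD1 was chosen, and it was not tested.

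**Figure D2:**
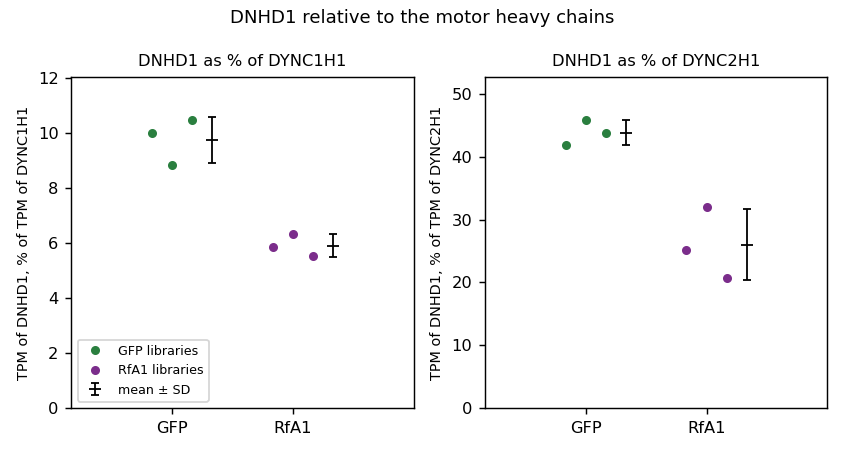
TPM of DNHD1 as a percent of the TPM of DYNC1H1 (left) and of DYNC2H1 (right) in each library, with green points for GFP, purple points for RfA1 and black marks for the mean ± SD. The RfA1 libraries lie from 5.52% to 6.33% of DYNC1H1 and the GFP libraries from 8.83% to 10.5%.

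The intermediate chains, which link dynein-1 to dynactin, differed widely in level. DYNC1I2 (Gene ID 1781), the form found in most cell types, had 66.7, 56.7 and 61.4 CPM with GFP against 66.9, 57.9 and 65.6 CPM with RfA1. The groups overlapped, and the log2 fold change was 0.04 (95% interval -0.16 to 0.25, adjusted p = 0.847 from edgeR's test), or -0.04 with the GC offset. DYNC1I1 (Gene ID 1780), the form known mainly from neurons, was the lowest of the 8 genes per length and rested on 26 to 33 counts per library. It had 2.34, 2.38 and 2.56 CPM with GFP against 3.003, 2.67 and 2.76 CPM with RfA1. Its groups did not overlap, with RfA1 higher, and the difference did not pass the test. The log2 fold change was 0.21 (standard error 0.20, 95% interval -0.23 to 0.65, adjusted p = 0.645 from edgeR's test).

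The light intermediate chains, which bind adaptors and, in dynein-2, stabilise the motor, had positive estimates, none past the threshold. DYNC1LI1 (Gene ID 51143), the most abundant of the 8 genes per length, had 73.3, 70.5 and 70.3 CPM with GFP against 82.3, 79.5 and 75.3 CPM with RfA1, with no overlap. Its log2 fold change was 0.15 (95% interval -0.03 to 0.32, adjusted p = 0.414 from edgeR's test). The difference did not pass the threshold, and with the GC offset it was 0.06. DYNC2LI1 (Gene ID 51626) had 20.8, 20.03 and 18.1 CPM with GFP against 22.8, 18.1 and 23.2 CPM with RfA1. RfA1 replicate 2 lay among the GFP libraries, and the log2 fold change was 0.12 (95% interval -0.14 to 0.39, adjusted p = 0.643 from edgeR's test).

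Of the 7 subunits followed here, DYNC1LI2 (Gene ID 1783) was the 1 whose call turned on a single library. It had 72.2, 62.3 and 67.4 CPM with GFP against 83.2, 67.9 and 83.2 CPM with RfA1. RfA1 replicates 1 and 3 lay above every GFP library and RfA1 replicate 2 lay among them. The log2 fold change was 0.21 (standard error 0.10, 95% interval -0.01 to 0.43, adjusted p = 0.369 from edgeR's test). Leaving out RfA1 replicate 2 gave 0.31 with an adjusted p of 0.0142 in edgeR, in a fit in which 20.1% of all tested genes passed. With the GC offset and all libraries the log2 fold change was 0.14 (adjusted p = 0.278 from edgeR's test). On the log2(TPM + 1) scale the adjusted p was 0.824 from limma.

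Among the 7 subunits the edgeR fit called 0 at an adjusted p under 0.05. At an unadjusted p under 0.05 it called 0 of the 7 as well, against 13.9% of all tested genes (7.3% higher and 6.64% lower). DESeq2, which called 0.254% of all genes, and limma on log2(TPM + 1), which called 0.0308%, also called 0 of the 7. With the replicate number as a block, alone (4.81% of all genes called) or with the GC offset (3.53%), 0 of the 7 passed too. The CPM of the groups did not overlap for 2 of the 7, DYNC1I1 and DYNC1LI1, both higher with RfA1, against 9.86% of all tested genes that were higher in this way. In TPM the same 2 genes did not overlap, against 9.29% of all tested genes. Across the 6 libraries, the log2 CPM of DNHD1 had Pearson's r of 0.09 with DYNC1H1 and 0.005 with DYNC2H1, and of -0.826 with DYNC1I1 and -0.853 with DYNC1LI1. These values hold the difference between the groups, which each of the libraries shares, and are a description of 6 points.

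**Figure D3:**
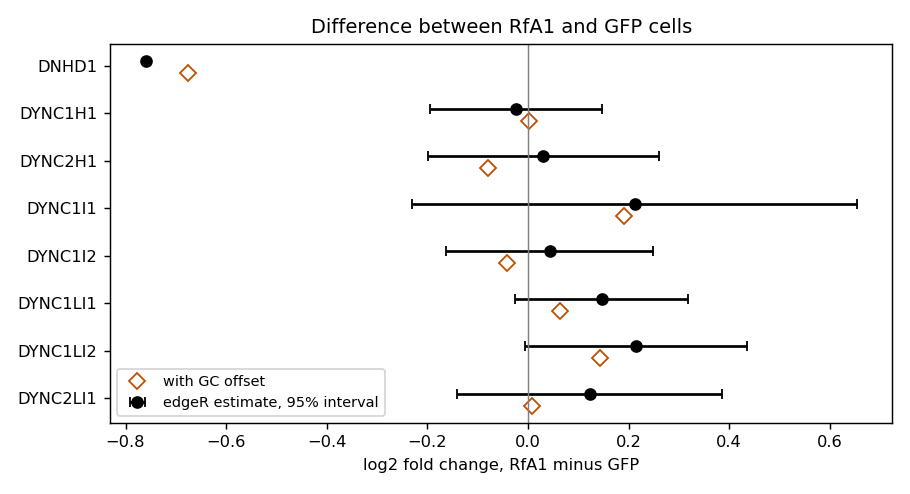
Log2 fold change of each gene, RfA1 minus GFP. Black points are edgeR estimates with 95% intervals for the 7 subunits (none is drawn for DNHD1, which was chosen for this difference), and open diamonds are the estimates with the GC offset. DNHD1 lies at -0.76, and all 7 intervals of the subunits include 0.

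The order of the levels per length was the same in both groups. In GFP cells DYNC1LI1 had 43.8 ± 2.06 TPM, DYNC1H1 31.6 ± 0.774, DYNC1LI2 27.2 ± 1.93, DYNC1I2 26.0 ± 2.78 and DYNC2LI1 23.3 ± 1.86 TPM (SD, n = 3 each). DYNC2H1 followed with 7.06 ± 0.760, DNHD1 with 3.09 ± 0.255 and DYNC1I1 with 1.23 ± 0.0503 TPM (SD, n = 3 each). In GFP cells the neighbours that overlapped between libraries were DYNC1LI2 with DYNC1I2 and DYNC1I2 with DYNC2LI1. In RfA1 cells the neighbours from DYNC1H1 to DYNC2LI1 all overlapped, while DYNC1LI1 stayed apart above them with 50.6 ± 3.27 TPM (SD, n = 3). DNHD1, at 1.92 ± 0.157 TPM, came nearer to DYNC1I1 at 1.49 ± 0.146 TPM (SD, n = 3 each), and the libraries of these genes did not overlap.

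The deposited counts and FPKM together give the length by which each gene was divided in each library. It is an effective length of the authors' estimate and was not tied to isoforms here. For DYNC1H1 it stayed between 19676 and 19684 bases. For DNHD1 it was 13520, 12310 and 12199 bases with GFP against 12075, 11299 and 14562 bases with RfA1. The DNHD1 lengths overlapped between the groups, with means of 12676 ± 733 and 12645 ± 1705 bases (SD, n = 3 each). Their range was 25.8% of their mean, against a median of 1.33% over 10220 genes with a mean of over 100 counts and more than 1 FPKM in each library, and 2.09% of those genes had a range as wide. For DYNC1LI2 the length was 3557, 3308 and 3255 bases with GFP against 3586, 3995 and 4003 bases with RfA1. It was longer in every RfA1 library, by 14.5% in the mean. A two-sided exact permutation test gave p = 0.1, below which 3 libraries against 3 cannot go, and 0.7 after adjustment over the 7 subunits. Of the 10220 genes, 5.62% were longer and 4.88% shorter in RfA1 with no overlap. Counts of DYNC1LI2 are thus divided by a greater length in RfA1 cells, and its TPM were 107% of the GFP mean where its CPM were 116%.

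**Figure D4:**
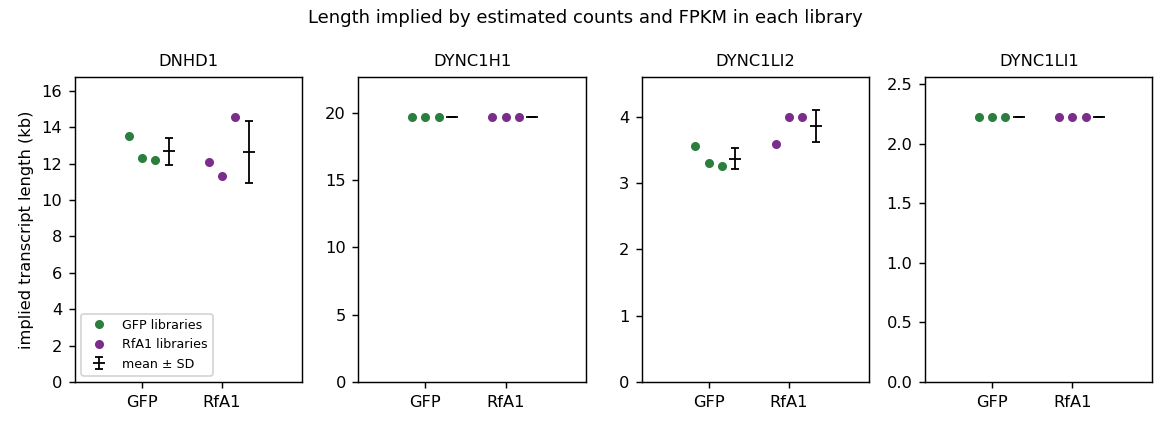
Length in kilobases implied by the estimated counts and FPKM for 4 genes in each library, with green points for GFP, purple points for RfA1 and black marks for the mean ± SD. The DYNC1H1 and DYNC1LI1 lengths hardly move, DNHD1 ranges from 11299 to 14562 bases in both groups together, and all DYNC1LI2 lengths of RfA1 libraries lie above those of GFP libraries.

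The genes beside DNHD1 were examined, as reads can be shared with a gene that overlaps it. In GENCODE 1 gene overlaps it, AC084337.2, a protein-coding model on the same strand (chr11:6481485-6508978) that covers 11719 bases of DNHD1. Reads in the shared stretch cannot be told apart by position. AC084337.2 could not be analysed here, because the deposited data held no entry under that symbol. Nor could LOC644169, a pseudogene upstream of DNHD1, which had no entry under its Gene ID. TIMM10B, upstream on the same strand, had 25.8, 21.4 and 26.2 CPM with GFP against 23.1, 25.6 and 26.7 CPM with RfA1, and the groups overlapped (log2 fold change 0.04, adjusted p = 0.886 from edgeR's test). Downstream, RRP8, on the opposite strand, and ILK, an integrin-linked kinase, had log2 fold changes of -0.10 and -0.18 (adjusted p = 0.592 and 0.364 from edgeR's test). Both were lower in all 3 RfA1 libraries than in any GFP library, RRP8 with 42.0 to 44.8 against 38.8 to 41.0 CPM and ILK with 63.0 to 66.0 against 55.2 to 60.6 CPM, where 8.01% of all tested genes were lower in this way. In TPM the groups overlapped for RRP8.

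The wider dynein pathway was covered by 9 lists with 89 genes, which include the 7 subunits. The table held 86 of them and 72 were tested. Of the 72, the edgeR fit called 0 at an adjusted p under 0.05, as did DESeq2 and limma on log2(TPM + 1). The GC offset called 1 of the 72 (1.56% of all tested genes), the replicate number as a block called 4, of which 1 was higher and 3 lower (4.81%), and the fit without RfA1 replicate 2 called 18 (20.1%). At an unadjusted p under 0.05 there were 13 (3 higher and 10 lower), which is 18.1% of the 72 against 13.9% of all tested genes. The CPM did not overlap for 21 of the 72, 11 higher and 10 lower, where 17.9% of all genes did not overlap.

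The remaining parts of the motors did not pass the test either. In dynein-2, the intermediate chains DYNC2I1 and DYNC2I2 had log2 fold changes of -0.17 and -0.21 (adjusted p = 0.393 and 0.345 from edgeR's test), and the CPM of both were lower in every RfA1 library than in any GFP library, against 8.01% of all tested genes. In TPM the groups overlapped for DYNC2I1. DYNC2I2 passed without RfA1 replicate 2 (adjusted p = 0.0157 from edgeR's test), where 20.1% of all tested genes passed. With the GC offset its value was -0.02. Its transcript has a GC content of 64.6%. Of the light chains, which bind the intermediate chains, 6 were tested with a median log2 fold change of 0.16, against -0.0024 over all tested genes. With the GC offset their median was 0.11. At an unadjusted p under 0.05, 2 of the 6 were higher, against 7.3% of all tested genes. The CPM of 4 of the 6 were higher with no overlap, against 9.86% of all tested genes. DYNLT3 and DYNLL2 had the smallest p, with 0.32 and 0.18 (adjusted p = 0.297 and 0.356 from edgeR's test). DYNLT3, with a GC content of 34.6%, had 17.8 to 19.2 CPM in the GFP libraries and 20.6 to 26.8 CPM in the RfA1 libraries. With the GC offset its log2 fold change was 0.18 (adjusted p = 0.375 from edgeR's test). It passed without RfA1 replicate 2 (adjusted p = 0.0212 from edgeR's test), where 20.1% of all tested genes passed.

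Dynactin, the complex that makes dynein-1 processive, had 12 tested subunits with log2 fold changes from -0.17 to 0.26 and a median close to 0. ACTR1B, CAPZA2 and DCTN1 had the smallest p, with -0.17, 0.26 and -0.17 (adjusted p = 0.398, 0.403 and 0.422 from edgeR's test). Without RfA1 replicate 2, these 3 passed (adjusted p = 0.0499, 0.0220 and 0.0335 from edgeR), and so did CAPZA1 (adjusted p = 0.0432), which is named for that fit alone, where 20.1% of all tested genes passed. The 6 regulators of dynein tested, such as PAFAH1B1 (LIS1) and NDEL1, ran from -0.07 to 0.15 with a median of 0.03. NDEL1 had 0.15 (adjusted p = 0.449 from edgeR's test), PAFAH1B1 0.13 (adjusted p = 0.609) and NUDCD3 -0.06 (adjusted p = 0.747).

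Activating adaptors join dynein and dynactin to cargo, and all 20 listed were tested. Their median log2 fold change was -0.13, with 12 negative and 8 positive, and -0.04 with the GC offset, and the median GC content of their transcripts was 57.5%. At an unadjusted p under 0.05, 4 of the 20 were lower (BICDL1, MAPK8IP3, HOOK2 and CCDC88B, the last named after its values were seen), against 6.64% of all tested genes. BICDL1, an adaptor of secretory vesicles, had the smallest p of them. It had 6.30, 6.62 and 8.30 CPM with GFP against 3.73, 5.34 and 3.62 CPM with RfA1, on 38 to 94 counts, with no overlap. The difference was -0.74 on the log2 scale, with a standard error of 0.19 and an adjusted p of 0.221 in edgeR, and it was -0.61 with the GC offset. MAPK8IP3 (JIP3), an adaptor of axonal transport, had 167, 188 and 192 CPM against 125, 174 and 129 CPM, with RfA1 replicate 2 among the GFP libraries. HOOK2, an adaptor at the centrosome, had 52.8, 53.0 and 52.3 CPM against 43.0, 48.3 and 33.3 CPM, with no overlap. Among the 20 adaptors, the CPM of 2 were lower with no overlap (BICDL1 and HOOK2), against 8.01% of all tested genes. Another 3 were higher with no overlap (SPDL1, TRAK1 and TRAK2, named after their values were seen), against 9.86%. The log2 fold changes of MAPK8IP3 and HOOK2 were -0.35 and -0.34 (adjusted p = 0.278 and 0.286 from edgeR's test). With the GC offset these were -0.18 and -0.19, and their transcripts have GC contents of 64.6% and 62.0%. With the replicate number as a block, BICDL1, MAPK8IP3 and HOOK2 passed (adjusted p = 0.0243, 0.0142 and 0.029 from edgeR's test). In that fit 4.81% of all tested genes passed. Without RfA1 replicate 2, 7 adaptors passed, among them BICDL1, MAPK8IP3 and HOOK2 (adjusted p = 0.00484, 0.00078 and 0.00566 from edgeR's test), where 20.1% of all tested genes passed.

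Axonemal heavy chains, like DNHD1, are known from flagella. Of 13 listed, 12 were in the table and 7 were tested, 3 higher and 4 lower, with a median log2 fold change of -0.21. At an unadjusted p under 0.05, 3 were lower (DNAH1, DNAH7 and DNAH10, the last named after its values were seen) and 1 was higher (DNAH17), against 6.64% and 7.3% of all tested genes. DNAH1, of the inner dynein arms, had 21.4, 22.8 and 21.3 CPM with GFP against 16.5, 19.1 and 16.3 CPM with RfA1, with no overlap (log2 fold change -0.34, adjusted p = 0.257 from edgeR). The CPM of 2 of the 7, DNAH1 and DNAH7, were lower with no overlap, against 8.01% of all tested genes. DNAH17, known from sperm outer arms, went the other way, with 3.51, 2.38 and 2.38 CPM against 4.46, 5.43 and 5.72 CPM, on 27 to 60 counts. It was the 1 gene of the 7 that was higher with no overlap, against 9.86% of all tested genes. The difference was 0.91 on the log2 scale, with a standard error of 0.21 and an adjusted p of 0.179 in edgeR, and with the GC offset it was 0.98 and passed (adjusted p = 0.0193), where 1.56% of all tested genes passed. DNAH7 had 12, 12 and 20 counts with GFP against 5, 8 and 5 with RfA1. It differed by -1.19 on the log2 scale, with a standard error of 0.39 and an adjusted p of 0.262 in edgeR. DNAH7 reached the filter's minimum count of 10 in the GFP libraries only. Its lower value was thus partly selected by the filter, and nothing is read from its p-values. Without RfA1 replicate 2, DNAH1, DNAH17 and DNAH7 passed (adjusted p = 0.0157, 0.0151 and 0.0398 from edgeR's test), where 20.1% of all tested genes passed.

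Other axonemal genes were mostly low. Of 8 further axonemal chains, 4 were tested. At an unadjusted p under 0.05, 2 of the 4 were lower (DNAL4 and DNAI4), against 6.64% of all tested genes. DNAL4, a light chain, had 23.7, 19.9 and 23.8 CPM with GFP against 16.8, 18.3 and 18.4 CPM with RfA1. Its log2 fold change was -0.33 (adjusted p = 0.275 from edgeR's test). Without RfA1 replicate 2 its adjusted p was 0.0450 from edgeR's test, where 20.1% of all tested genes passed. DNAI4 differed by -0.58 on the log2 scale (adjusted p = 0.294) and DNAL1 by 0.18 (adjusted p = 0.560), both from edgeR's test. The 8 tested assembly factors, which fold axonemal dyneins in the cytoplasm, had a median of -0.13, and 0 of them had an unadjusted p under 0.05. DNAAF3, DNAAF2 and ZMYND10 had the smallest p, with -0.14, -0.15 and -0.46 (adjusted p = 0.480, 0.500 and 0.500 from edgeR's test).

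**Figure D5:**
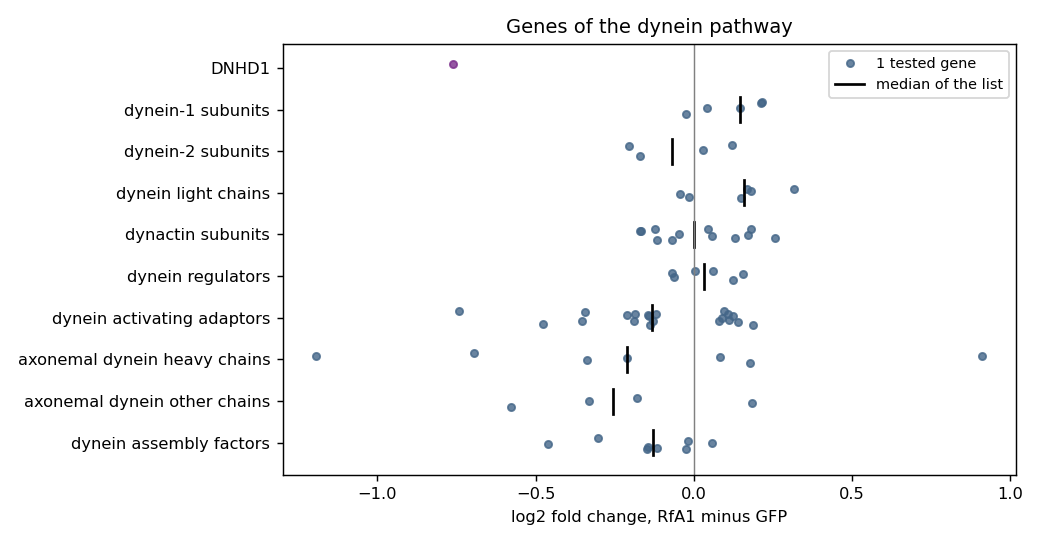
Log2 fold change of each tested gene of the dynein pathway, RfA1 minus GFP, by list; each point is 1 gene, moved at random up or down within its row, and black bars are list medians. The dynein-1 median is 0.15 and that of axonemal heavy chains -0.21, and DNHD1 lies at -0.76.

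The genes whose log2 CPM was most like that of DNHD1 over the 6 libraries were sought among 12292 genes whose log2 CPM averaged 1 or more. BSN, which encodes bassoon of the presynaptic zone, had the highest Pearson's r (0.997), followed by MAN2A2 (0.994), SPRED3 (0.994), ZNF689 (0.992) and GON7 (0.989). BSN had 21.0, 18.2 and 21.1 CPM with GFP against 12.5, 12.7 and 13.2 CPM with RfA1, and SPRED3 had 5.40, 5.12 and 5.39 CPM against 3.19, 3.34 and 3.24 CPM. Both were lower in every RfA1 library, as their choice by likeness to DNHD1 requires. Their log2 fold changes were -0.65 and -0.70, while those of MAN2A2, ZNF689 and GON7 were -0.19, -0.25 and -0.12. These 5 were picked for their likeness over 6 libraries that fall into the study's groups, and no test is given for them.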

How the data were processed

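RNA-seq of 3 GFP and 3 RfA1 libraries was analysed from one table. The authors deposited estimated counts (7.39% to 8.02% not whole), TPM and FPKM per library. The submitters' processing notes name HISAT and GRCh38.p13. The counting tool and annotation are not given in the sources used here. Columns of group averages were not used.

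Counts were rounded, filtered with filterByExpr (minimum count 10, total 15), normalized by TMM and compared with the robust quasi-likelihood test of edgeR 4.0.16 in R 4.3.3, two-sided, with Benjamini-Hochberg adjustment over 13002 genes and a threshold of 0.05. A standard error is the fold change over the root of its F statistic. Alternatives were DESeq2 1.42.0, limma 3.58.1 on log2(TPM + 1) and log2(TPM + 0.1), other scalings and filters, the replicate number as a block, a GC offset (spline with 5 degrees of freedom on GENCODE 29 transcripts, 98.3% of genes matched) and leaving out each library. Implied length is counts over FPKM and total. Scripts were tested on simulated data. Named were the 8 genes, 3 per list by smallest p, genes of the lists past the threshold with or without the block, neighbours of DNHD1 and the 5 most alike. Members and lists were chosen with earlier results of these data known. Figures used matplotlib 3.10.9.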

Additional observations from a re-analysis of the deposited data

How the results depend on the processing

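The DNHD1 difference kept its direction in all 16 alternatives. It was -0.49 and -0.66 with limma on log2(TPM + 1) and log2(TPM + 0.1). At the 1.74 to 3.35 TPM of DNHD1, adding 1 before the logarithm makes the difference smaller. The log2 fold change was -0.68 with the GC offset, -0.67 with that and the block, and from -0.82 to -0.73 with 1 library left out. The log2 ratio of DNHD1 to each heavy chain, recomputed in FPKM and CPM and with 1 library left out, ran from -0.94 to -0.63. The count of genes past the threshold was 10 and became 33 with DESeq2, 6 with upper-quartile normalization, 20 with no filter, 4 and 4 with limma on TPM (0.1 or 1 added), 203 with the GC offset, and 459 with that and the block. It ran from 0 to 2636 with 1 library left out, the highest without RfA1 replicate 2. Of the 7 subunits 0 passed, and from 0 to 1 with 1 library left out (DYNC1LI2, without RfA1 replicate 2); the cause was not tested.

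With the replicate number as a block 625 genes passed, all 10 among them, and BICDL1, MAPK8IP3, HOOK2 and DNAH17 did (adjusted p = 0.0243, 0.0142, 0.0291 and 0.0193 from edgeR's test), as did 0 of the 7 subunits. Deviations of same-numbered libraries correlated by 0.166, 0.321 and -0.143. The replicate 2 libraries correlated best with each other, but not every library correlated best with its own number. Whether the numbers pair the libraries cannot be told from so few values.

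Signs turned for 6 of 38 named genes, none past the threshold. DYNC1H1 was 0.035 and 0.036 with limma on TPM (1 or 0.1 added), and NUDCD3 0.025 both times. The medians over all tested genes were 0.045 and 0.052 in these limma fits. With the GC offset DYNC1H1 was 0.0016, DYNC2H1 -0.079, DYNC1I2 -0.042, NUDCD3 0.0021, DNAAF3 0.012 and TIMM10B -0.0089, and with the block as well 0.00085, -0.079, -0.042, 0.0015, 0.012 and -0.0091. With 1 library left out, DYNC1H1 ran from -0.062 to 0.021, DYNC2H1 from -0.040 to 0.12, DYNC1I2 from -0.012 to 0.11 and TIMM10B from -0.049 to 0.095. Of the 607 values, 30 newly passed the threshold, 16 of them without RfA1 replicate 2. Counts of 26 to 33 limit DYNC1I1, and of 5 to 20 DNAH7.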
